A study of Mus musculus with 6 samples.

Results

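Integrins are cell-surface receptors built from an alpha and a beta subunit, and each pair binds its own set of matrix ligands. Integrin subunits were followed here as a group of 10 genes: ITGAV, ITGA2, ITGA3, ITGA4, ITGA5 and ITGA6 for the alpha side and ITGB1, ITGB3, ITGB4 and ITGB5 for the beta side. Members were chosen by Ensembl identifier, as all rows of the 6 event lists that carry one of ENSG00000138448 (ITGAV), ENSG00000164171 (ITGA2), ENSG00000005884 (ITGA3), ENSG00000115232 (ITGA4), ENSG00000161638 (ITGA5), ENSG00000091409 (ITGA6), ENSG00000150093 (ITGB1), ENSG00000259207 (ITGB3), ENSG00000132470 (ITGB4) and ENSG00000082781 (ITGB5). An event is a start, an end, or an exon or intron that some transcripts hold and others lack. Of the 10 identifiers, 8 had rows and 2, those of ITGB3 and ITGA3, had none. The 8 covered 9 of 15234 loci and 124 of 175128 distinct events, and 75 of the 124 were listed in all 6 tumours.

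The tumours grew under the skin of BALB/c nude mice from A375 cells, an established human melanoma line labelled wild type. The ZLD1039 group was dosed by gavage once a day at 100 mg/kg, and the vehicle group received vehicle alone by the same route. All tumours were taken on day 27, with 3 sequenced per group out of 5 mice per group. ZLD1039 inhibits EZH2, the enzyme of Polycomb repressive complex 2 that methylates histone H3 at silent genes. Nude mice lack most T cells but keep other host cells, and host reads placed on human loci cannot be told apart from those of the graft. Whether the sequenced tumours come from different mice is not in the labels, so the p-values cover the spread between these samples alone. In such bulk tissue, fewer cells of a type and less RNA per cell cannot be told apart.

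Most integrins link the matrix outside the cell to actin inside it through talin and kindlin, which bind the beta tail. The beta chain encoded by ITGB1 pairs with many alpha chains and serves fibronectin, collagen and laminin receptors. The ITGAV chain pairs with those of ITGB3 and ITGB5 to bind vitronectin and other ligands with an RGD motif, and gain of the ITGB3 chain is a known mark of invasive melanoma growth. The ITGA6 chain pairs with ITGB1 or with ITGB4, and with ITGB4 it anchors epithelial cells to laminin at hemidesmosomes.

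Abundance is given in FPKM, fragments scaled to transcript length and library size, which permits levels of different genes to be compared. The value of a locus is the largest of its summed starts, its summed ends and its largest single event. ZLD1039 tumour 2 stood apart from the rest. Its mean correlation with the other tumours over log2 locus values was 0.919, against 0.934 to 0.943 for the other 5. It listed 118402 events, against 123707 to 127722 in the others, and results that rest on it are given with and without it. Depth is unknown for these files, and counting error was therefore not computed. Of 6 melanoma marker identifiers, taken from background knowledge, 4 were listed, 3 of them abundant enough to test with a log2 change below 0 for all 3, against 47.1% of all loci tested. Of these 3, limma called 0 (0.0185% of all loci), 1 had an unadjusted p under 0.05 (5.02% of all loci) and 1 had groups that did not overlap (10.9% of all loci). The summed level of the list was 24.3 to 56.2 FPKM in ZLD1039 tumours and 53.9 to 81.2 FPKM in vehicle tumours, most of it from 1 locus at 21.3 to 70.0 FPKM. Of 4 endothelial and leukocyte identifiers 3 were listed in no tumour. The remaining 1 labels a locus of 31438 bases at 672 to 924 FPKM in ZLD1039 tumours and 634 to 794 FPKM in vehicle tumours. Labels of merged loci can stand for neighbouring genes, so this level is given with no reading.

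No integrin locus passed the test for a change under ZLD1039. Of the 8 main loci, 5 had a log2 change below 0 (47.1% of all loci tested) and 3 above 0, with a median log2 change of -0.20, against a median of 0.02 over all loci tested. The count of called members was 0 of 8 (limma on log2(FPKM + 1), Benjamini-Hochberg adjusted p from 0.88 to 0.99), and 0.0185% of all loci were called. None of the 8 had an unadjusted p under 0.05 by limma, where 5.02% of all loci did. Groups that did not overlap were found at 0 of the 8, against 10.9% of all loci. The standard error of a log2 change was 0.18 to 0.47, and the 95% intervals of ITGA2, ITGA6, ITGB4 and ITGB5 reached a 2-fold change. Fold changes on this scale understate the change of low values.

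**Figure D1:**
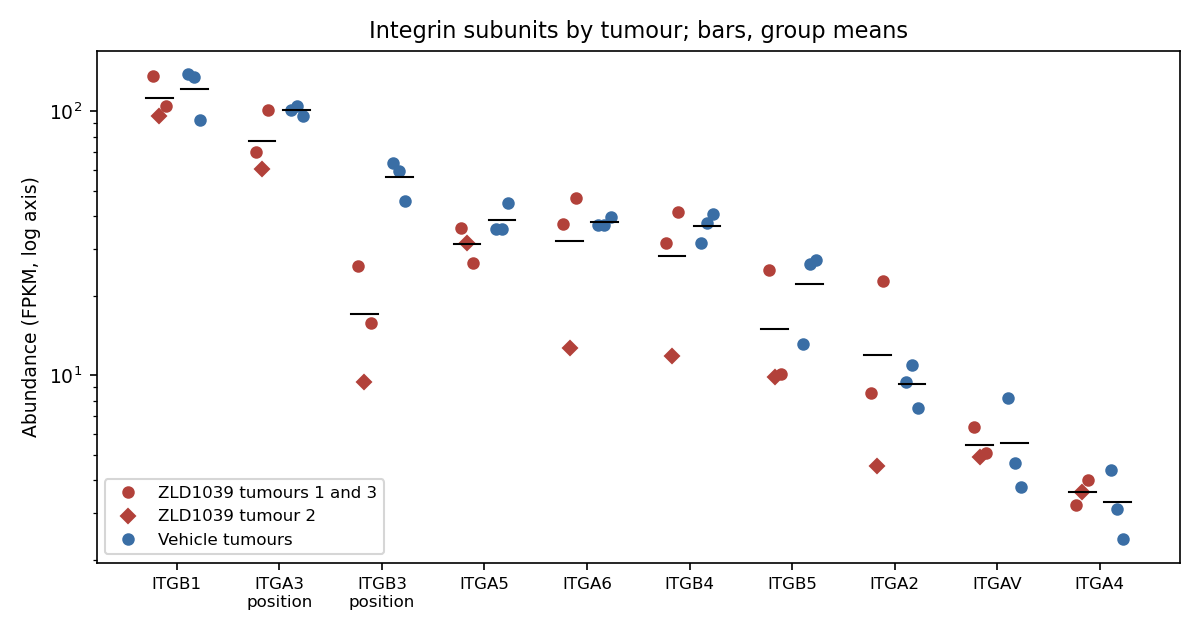
Abundance of each integrin subunit in FPKM (log axis) in 3 ZLD1039 tumours (red, left of each pair; diamond, ZLD1039 tumour 2) and 3 vehicle tumours (blue, right), with black bars for group means. Subunits labelled "position" are single start events and not whole loci; ITGB1 lies highest at 92.4 to 139 FPKM and ITGA4 lowest at 2.38 to 4.39 FPKM.

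The subunits spanned a wide range of levels. ITGB1 was the most abundant at a mean of 117 FPKM over the 6 tumours. ITGA5, ITGA6 and ITGB4 followed with means of 35.2, 35.2 and 32.5 FPKM. ITGA5 exceeded ITGA6 in 2 of 6 tumours and ITGA6 exceeded ITGB4 in 4 of 6, so the order of these 3 is not settled. Single starts at the chromosomal positions of ITGA3 and ITGB3, whose own identifiers have no rows, averaged 89.1 and 36.7 FPKM. ITGB4 stood above ITGB5, at a mean of 18.6 FPKM, in 6 of 6 tumours. ITGB5 stood above ITGA2, at 10.6 FPKM, in 5 of 6, and ITGA2 above ITGAV, at 5.50 FPKM, in 5 of 6. ITGA4 was the lowest at 3.45 FPKM and lay below ITGAV in 6 of 6 tumours.

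ITGB1, the shared beta chain, did not differ between the groups beyond the spread of the tumours. Its locus (chromosome 10, 33195393 to 33247160, minus strand) measured 137, 96.2 and 105 FPKM in ZLD1039 tumours 1, 2 and 3, against 139, 135 and 92.4 FPKM in vehicle tumours 1, 2 and 3. Each group held a tumour above 130 and a tumour below 100 FPKM, and the groups overlapped fully. The log2 change was -0.11 ± 0.22 (SE; adjusted p in limma = 0.94), and its 95% interval ran between -0.62 and 0.41. With 1 tumour left out it lay between -0.29 (without vehicle tumour 3) and -0.0024 (without ZLD1039 tumour 2). The variable exon at 33195393 to 33195508, 116 bases long, was nearly always skipped. It was included in 4.12, 0.0090 and 0.24% of ITGB1 transcripts in the ZLD1039 tumours, against 1.96, 2.96 and 0% in the vehicle tumours. Alternative exons in the tail region of ITGB1 are known to give rare forms with other cytoplasmic ends, and here the form that skips this exon made up over 95% in each tumour.

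Among the alpha partners of ITGB1, ITGA5 forms the classic fibronectin receptor. Its main locus (chromosome 12, 54793429 to 54813244, minus strand) measured 36.1, 31.8 and 26.6 FPKM in ZLD1039 tumours and 35.9, 36.0 and 44.8 FPKM in vehicle tumours. By this value ZLD1039 tumours 2 and 3 lay below every vehicle tumour, while ZLD1039 tumour 1 fell among them. That order rests on adding a start inside the gene, which held 14.3 FPKM in vehicle tumour 2. The main start (54812765 to 54813244) measured 35.0, 31.2 and 26.2 FPKM in ZLD1039 tumours. In vehicle tumours it measured 35.0, 21.5 and 40.9 FPKM, so vehicle tumour 2 was lowest there. The log2 change of the locus value was -0.30 ± 0.18 (SE; adjusted p in limma = 0.88), and its 95% interval ran between -0.72 and 0.12. It was -0.19 without ZLD1039 tumour 3, -0.20 without vehicle tumour 3 and -0.03 with the largest event as the locus value. A small plus-strand locus of 3222 bases carries the same identifier (54789120 to 54792341). It measured 1.43, 7.48 and 5.63 FPKM in ZLD1039 tumours and 4.57, 1.93 and 1.88 FPKM in vehicle tumours. Whether the libraries kept strand is not given in the sources used here, so reads of opposite strands in this region cannot be kept apart with certainty.

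ITGA5 transcripts with retained introns were most abundant in vehicle tumour 2. In that tumour the introns at 54797108 to 54797409 and 54798259 to 54798487 were listed as retained at 14.3 FPKM, and a start at 54799654 to 54799900 carried that same value. Retention of the first of these introns was 0.76, 0 and 0.68% in ZLD1039 tumours, against 0.34, 40.3 and 11.0% in vehicle tumours. High retention was thus seen in 2 vehicle tumours but not in vehicle tumour 1, which lay in the range of the ZLD1039 tumours. The difference was -16.7 percentage points (SE 10.1 points; adjusted p in limma = 0.72).

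ITGA4, which pairs with ITGB1 to bind VCAM1 and fibronectin, was low in all tumours. Its locus (chromosome 2, 182321929 to 182399543, plus strand) measured 3.22, 3.61 and 4.01 FPKM in ZLD1039 tumours, against 4.39, 3.12 and 2.38 FPKM in vehicle tumours. The ZLD1039 values lay inside the span of the vehicle values, with a log2 change of 0.13 and an SE of 0.22 (adjusted p in limma = 0.93). Retention of an intron at 182399097 to 182399543 was listed in vehicle tumour 1 alone, at 18.9%.

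ITGA2, the alpha chain of a collagen receptor, varied widely under ZLD1039, at 12.0 ± 9.59 FPKM, against 9.27 ± 1.74 FPKM in vehicle tumours (SD, n = 3 each). Its locus (chromosome 5, 52285156 to 52390609, plus strand) measured 8.57, 4.53 and 22.8 FPKM in ZLD1039 tumours and 9.39, 10.9 and 7.48 FPKM in vehicle tumours. The ZLD1039 group held both the lowest and the highest value, on either side of all vehicle tumours. The log2 change was 0.09 ± 0.47 (SE; adjusted p in limma = 0.98), and it was -0.48 without ZLD1039 tumour 3 (limma, adjusted p = 0.82; 0.82 to 1.00 over the alternatives). The leading start was not listed in ZLD1039 tumour 2, although other events of the locus were, so summed starts alone would set this tumour to 0.

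The laminin receptor subunits ITGA6 and ITGB4 had like locus values within each tumour. ITGA6 (chromosome 2, 173292082 to 173366629, plus strand) measured 37.5, 12.7 and 46.9 FPKM in ZLD1039 tumours and 37.1, 37.0 and 39.8 FPKM in vehicle tumours. ITGB4 (chromosome 17, 73717408 to 73753391, plus strand) measured 31.6, 11.8 and 41.5 FPKM in ZLD1039 tumours and 31.6, 37.9 and 40.9 FPKM in vehicle tumours. By locus value ZLD1039 tumour 2 was lowest and ZLD1039 tumour 3 highest for both genes, with the vehicle tumours between them. The ITGB4 values of ZLD1039 tumour 3 and vehicle tumour 1 include a form that ends early (73738663 to 73738738), at 7.524 and 6.001 FPKM. Past that end, abundance without the exon at 73742345 to 73742456 was 32.5 FPKM in ZLD1039 tumour 3 (1.32 FPKM with it). It was 25.5, 37.3 and 40.8 FPKM in vehicle tumours 1, 2 and 3. The top place of ZLD1039 tumour 3 for ITGB4 thus rests on the early-ending form. The ratio of the ITGA6 to the ITGB4 locus value stayed between 0.973 and 1.19 in the 6 tumours. Without the early-ending ITGB4 form it would be higher in ZLD1039 tumour 3 and vehicle tumour 1. A low value of ITGA6 came with a low value of ITGB4 in ZLD1039 tumour 2 alone, the only tumour low for either gene. These tumours share library and normalization for both genes, and the ratio is given as a description.

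Neither laminin receptor subunit passed the test. The log2 change was -0.41 ± 0.42 for ITGA6 (SE; adjusted p in limma = 0.89). For ITGB4 it was -0.53 ± 0.41 (SE; adjusted p in limma = 0.88). Both averages rest on ZLD1039 tumour 2. Without it the log2 change was 0.14 for ITGA6 (limma, adjusted p = 0.95; 0.70 to 1.00 over the alternatives). For ITGB4 it was -0.01 without that tumour (limma, adjusted p = 0.99; 0.66 to 1.00 over the alternatives). Without ZLD1039 tumour 3 the change was -0.76 for ITGA6 and -0.88 for ITGB4.

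**Figure D2:**
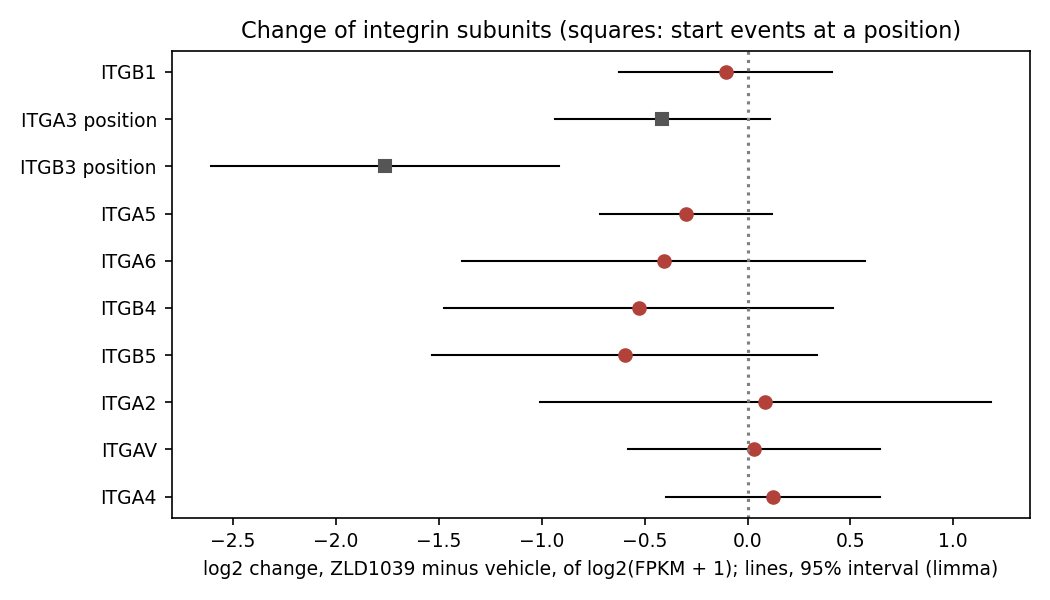
Log2 change (ZLD1039 minus vehicle, on the scale of log2(FPKM + 1)) of each integrin subunit with its 95% interval from limma, 3 tumours per group; circles are loci and squares single start events at a position. The intervals of all 8 loci include 0, and the start event at the ITGB3 position lies at -1.76.

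The cytoplasmic tail of ITGA6 exists in 2 known forms, A and B, set by a skippable exon near the 3′ end of the gene. Inclusion of that exon gives the A form and skipping shifts the reading frame to give the B form. In the files this exon lies at 173366500 to 173366629 and is 130 bases long, a length not divisible by 3. Transcripts with the exon stood at 15.3, 7.93 and 40.6 FPKM in ZLD1039 tumours, against 17.5, 17.8 and 22.1 FPKM in vehicle tumours. Transcripts without it stood at 21.8, 4.15 and 5.92 FPKM in ZLD1039 tumours and at 19.3, 18.6 and 17.3 FPKM in vehicle tumours. The skipped form was thus lowest in ZLD1039 tumours 2 and 3 and highest in ZLD1039 tumour 1. Its log2 change was -1.05 ± 0.53 (SE; adjusted p in limma = 0.86), against -0.14 ± 0.53 for the form with the exon (SE; adjusted p in limma = 0.97). The change of the skipped form was -1.70 without ZLD1039 tumour 1 and -0.62 without ZLD1039 tumour 2 (limma, adjusted p = 0.18 and 0.90; 0.18 to 0.94 over the alternatives). Another exon of ITGA6, 117 bases long and starting at 173337502, was included in ZLD1039 tumour 3 alone, at 12.6%.

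Inclusion of the ITGA6 tail exon was 41.3, 65.7 and 87.3% in the ZLD1039 tumours, against 47.6, 49.0 and 56.1% in the vehicle tumours. The vehicle tumours used both tails about equally, while the ZLD1039 tumours ranged more widely, with 1 below and 2 above all vehicle tumours. Means were 64.7 ± 23.0% under ZLD1039 and 50.9 ± 4.60% under vehicle (SD, n = 3 each). The difference of 13.9 percentage points did not exceed the spread (exact two-sided permutation p = 0.4, smallest possible 0.1). Fitted over all exons and introns, the same difference had a standard error of 20.1 points (limma, adjusted p = 0.80). Without ZLD1039 tumour 3 it was 2.61 points and without ZLD1039 tumour 1 it was 25.6 points, so single tumours set its size.

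**Figure D3:**
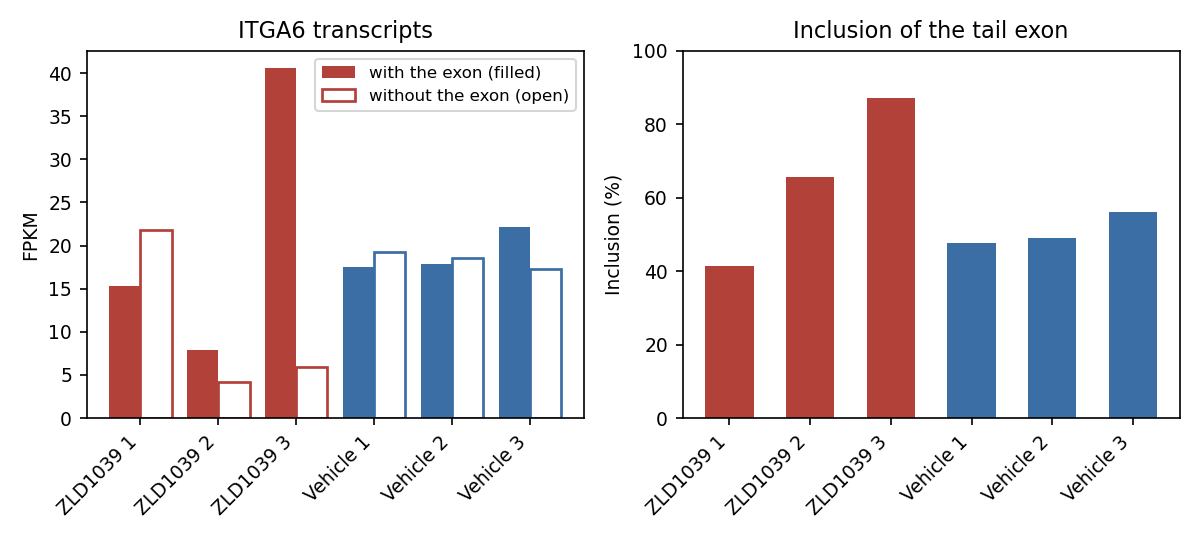
ITGA6 tail exon in each tumour (ZLD1039, red; vehicle, blue), as FPKM of transcripts with the exon (filled) and without it (open) on the left and as percent inclusion on the right. Vehicle tumours lie between 47.6 and 56.1%, and ZLD1039 tumours between 41.3 and 87.3%.

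ITGB4 ends and exons varied from tumour to tumour within both groups. An end at 73738663 to 73738738, far upstream of the last exons, was used at 7.524 FPKM in ZLD1039 tumour 3 and 6.001 FPKM in vehicle tumour 1 and was not listed elsewhere. The exon at 73749846 to 73750055 was 210 bases long. Of the abundance listed with or without it, 0.21, 0.083 and 0.17% included it in ZLD1039 tumours, against 0.13, 23.3 and 0.067% in vehicle tumours. Exon 73751136 to 73751294 was included in 0.22, 29.5 and 0.33% in ZLD1039 tumours and in 0.15, 26.0 and 0.60% in vehicle tumours. In each group the tumour numbered 2 held the form with this exon, and the others nearly lacked it.

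Of the vitronectin receptor subunits, ITGAV had nearly equal means, at 5.45 ± 0.79 FPKM in ZLD1039 tumours and 5.55 ± 2.36 FPKM in vehicle tumours (SD, n = 3 each). Its locus (chromosome 2, 187454792 to 187545628, plus strand) measured 6.36, 4.91 and 5.09 FPKM in ZLD1039 tumours, against 8.23, 4.67 and 3.75 FPKM in vehicle tumours. The ZLD1039 values lay within the vehicle range, with a log2 change of 0.03 and an SE of 0.26 (adjusted p in limma = 0.99), and its 95% interval ran between -0.58 and 0.64. ITGAV stood below its partners ITGB5 and ITGB1 in level in every tumour. In ZLD1039 tumour 2 its leading start was listed at 0.93 FPKM but its end at 4.91 FPKM, so starts and ends of a locus need not match.

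ITGB5, an RGD-binding partner of ITGAV, varied in both groups. Its locus (chromosome 3, 124527869 to 124606674, minus strand) measured 25.1, 9.86 and 10.1 FPKM in ZLD1039 tumours and 13.1, 26.3 and 27.3 FPKM in vehicle tumours. ZLD1039 tumours 2 and 3 were below all vehicle tumours, and ZLD1039 tumour 1 lay close to the higher vehicle tumours. The log2 change was -0.60 ± 0.40 (SE; adjusted p in limma = 0.88), and its 95% interval ran between -1.53 and 0.34. Single tumours moved this value: it was -1.01 without ZLD1039 tumour 1, -0.38 without ZLD1039 tumour 2, -0.40 without ZLD1039 tumour 3 and -0.92 without vehicle tumour 1. With the largest event as the locus value it was -0.25.

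The leading start of ITGB5, at 124605778 to 124606144, carried 61.2, 67.0 and 76.5% of the start abundance in ZLD1039 tumours, against 50.3, 55.8 and 16.1% in vehicle tumours. All ZLD1039 tumours lay above all vehicle tumours. The difference was 27.6 percentage points (SE 13.6 points; adjusted p in limma = 0.76). This was the only one of 20 integrin start sites tested whose groups did not overlap, against 8.07% of all start sites tested in either direction and 4.11% with ZLD1039 tumours higher. A start 65.8 kb downstream was used in all 6 tumours, at 10.9, 14.1 and 17.5% in ZLD1039 tumours and 21.5, 10.1 and 30.7% in vehicle tumours. The start 0.53 kb upstream held 14.7, 17.6 and 0% in ZLD1039 tumours, against 0, 0 and 37.8% in vehicle tumours. The start 45.7 kb downstream held 12.3, 0 and 0% in ZLD1039 tumours, against 25.9, 0.21 and 15.2% in vehicle tumours. Only the start 0.30 kb upstream was listed in a single tumour, vehicle tumour 2, at 33.1%. The starts 0.30 and 0.53 kb upstream lie next to the leading start (124606148 to 124606446 and 124606447 to 124606674). Counted together with it, they would place vehicle tumour 2 above all ZLD1039 tumours. The lack of overlap at the leading start thus rests on counting these neighbouring starts apart. An exon at 124536468 to 124536557 was 90 bases long. Of the abundance listed with or without it, 83.3, 100.0 and 100.0% included it in ZLD1039 tumours. In vehicle tumours 66.0, 99.8 and 74.8% did (limma, adjusted p = 0.72). The exon at 124527869 to 124528003, 135 bases long, was included in 84.8, 82.7 and 81.4% in ZLD1039 tumours, against 70.0, 89.8 and 59.6% in vehicle tumours. For both exons vehicle tumours 1 and 3 lay below all ZLD1039 tumours, while vehicle tumour 2 did not. In each tumour the abundance without the 90-base exon equalled that of the start 45.7 kb downstream. Abundance without the 135-base exon equalled that of the start 65.8 kb downstream. These inclusions therefore restate the start sites and are not separate results.

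**Figure D4:**
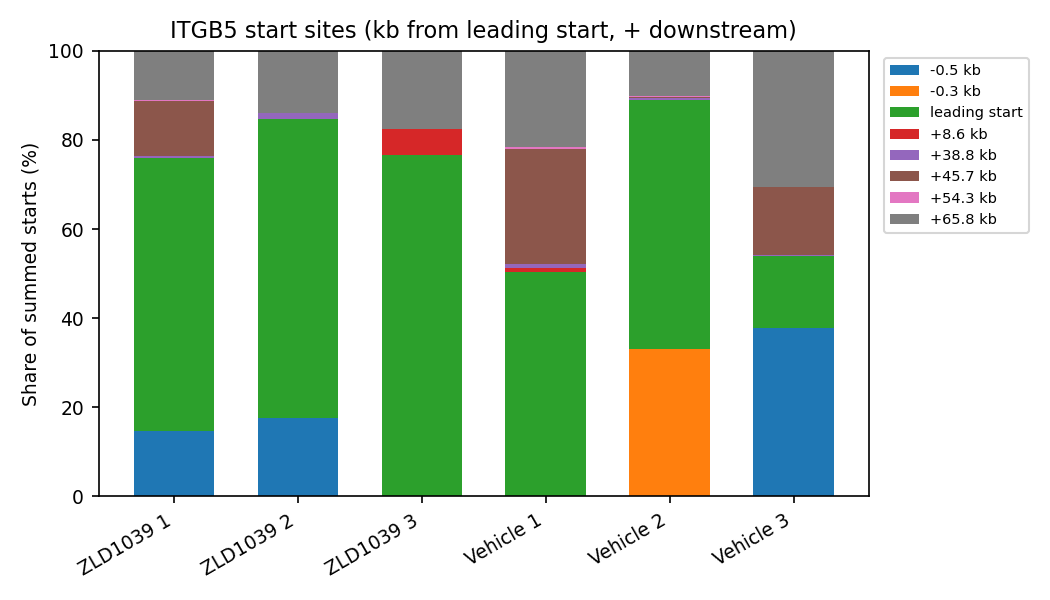
Share of summed ITGB5 start abundance at each start site in 3 ZLD1039 tumours (left) and 3 vehicle tumours (right), in percent; sites are named by their distance from the leading start in kb, positive downstream. The leading start holds 61.2 to 76.5% in ZLD1039 tumours and 16.1 to 55.8% in vehicle tumours.

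The identifiers of ITGB3 and ITGA3 label no row, but their positions are covered by merged loci. The files pair human identifiers with positions that match human GRCh37 as known from background, although the labels name the mouse and the submitters' processing notes name mm10. By that knowledge ITGB3 starts at the first major start of a plus-strand locus on chromosome 17 that the files label ENSG00000178852 (45331136 to 45490282). ITGA3 likewise starts at the first start of a plus-strand locus labelled ENSG00000005882 (48133332 to 48185781). No human annotation was used here, and each of these loci also holds starts far downstream, so only events at the position itself are given. They were picked out after the values were seen and are not counted among the 8 members.

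At the ITGB3 position the start event (45331212 to 45331306) was lower in every ZLD1039 tumour. It measured 25.9, 9.42 and 15.7 FPKM in ZLD1039 tumours 1, 2 and 3, against 63.7, 59.6 and 45.8 FPKM in vehicle tumours 1, 2 and 3. The matching end (45387505 to 45395840) measured 23.5, 9.16 and 14.4 FPKM in ZLD1039 tumours and 56.8, 52.6 and 38.5 FPKM in vehicle tumours. The groups did not overlap at the start or at the end, and 4.95% of all events tested had ZLD1039 tumours below vehicle tumours without overlap. Means of the start were 17.03 ± 8.34 FPKM under ZLD1039 and 56.4 ± 9.38 FPKM under vehicle (SD, n = 3 each). The log2 change was -1.76 with a standard error of 0.35, but it did not pass the threshold over all events (limma, unadjusted p = 0.0019, adjusted p = 0.56). For the end it was -1.66 ± 0.34 (SE; adjusted p in limma = 0.61). Without ZLD1039 tumour 2 the change of the start was -1.42 (limma, adjusted p = 0.52; 0.21 to 0.90 over the alternatives). The summed melanoma markers stood at 56.2, 24.3 and 26.3 FPKM in ZLD1039 tumours, against 53.9, 62.7 and 81.2 FPKM in vehicle tumours, so ZLD1039 tumours 2 and 3 lay below all vehicle tumours and ZLD1039 tumour 1 did not. Their part in this difference was not tested.

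**Figure D5:**
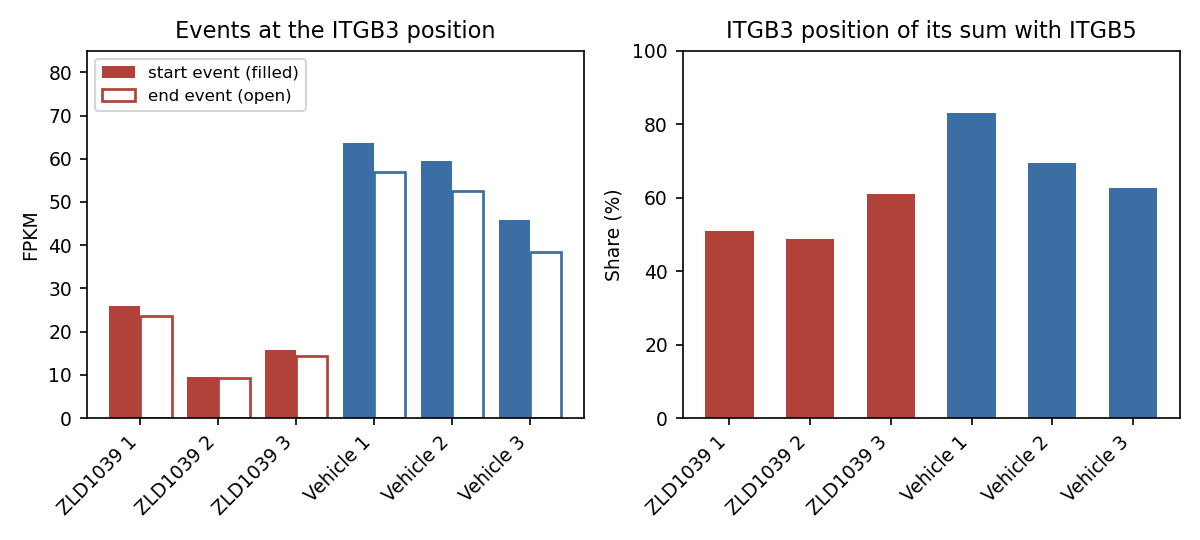
Start (filled) and end (open) events at the ITGB3 position in FPKM on the left, and the share of that start in its sum with the ITGB5 locus in percent on the right, for 3 ZLD1039 tumours (red) and 3 vehicle tumours (blue). Start values lie between 9.42 and 25.9 FPKM under ZLD1039 and between 45.8 and 63.7 FPKM under vehicle.

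Set beside ITGB5, the alternative beta partner of ITGAV, the ITGB3 position held a smaller share in ZLD1039 tumours. Its start made up 50.8, 48.9 and 60.9% of the sum of that start and the ITGB5 locus in ZLD1039 tumours, against 82.9, 69.4 and 62.7% in vehicle tumours. ZLD1039 tumour 3 and vehicle tumour 3 lay less than 2 points apart, with no overlap between the groups. The difference was -18.1 percentage points (exact two-sided permutation p = 0.1, the smallest that 3 against 3 allows, and 0.6 after Benjamini-Hochberg adjustment over 6 shares). The start was picked after its values were seen, and its own groups did not overlap. This share is therefore no separate support for a change at that position. It also sets a single start event against the value of a whole locus.

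At the ITGA3 position the start event (48133332 to 48134009) measured 70.2, 60.3 and 101 FPKM in ZLD1039 tumours, against 101, 105 and 96.4 FPKM in vehicle tumours. The ITGA3 chain pairs with ITGB1 as a laminin receptor. ZLD1039 tumours 1 and 2 lay below all vehicle tumours and ZLD1039 tumour 3 among them, with a log2 change of -0.41 and an SE of 0.22 (adjusted p in limma = 0.86). This change was -0.25 without ZLD1039 tumour 2 and -0.62 without ZLD1039 tumour 3. Its level was above every other alpha subunit in all 6 tumours and below ITGB1 in 5 of 6. ITGA3 also has a skippable tail exon, and the last exon of that locus that can be skipped, 142 bases long and ending at 48165730, was taken for it from its place alone. It was included in over 99.9% of transcripts in each tumour, so a form without it was hardly listed in either group. Retention of neighbouring introns at 48154045 to 48154743 stood at 0.59, 0.46 and 0.36% in ZLD1039 tumours, against 42.1, 24.7 and 0.37% in vehicle tumours (limma, adjusted p = 0.72). Vehicle tumours 1 and 2 thus held the retained form, and vehicle tumour 3 lay with the ZLD1039 tumours.

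The groups overlapped in each share of the alpha side. Among the 5 alpha subunits listed under their identifiers, ITGA5 made up 39.9 ± 15.0% in ZLD1039 and 40.9 ± 4.19% in vehicle tumours (SD, n = 3 each). ITGA6 made up 35.8 ± 12.0% in ZLD1039 and 39.97 ± 0.77% in vehicle tumours. ITGA2 made up 12.9 ± 7.55% in ZLD1039 and 9.81 ± 2.165% in vehicle tumours. ITGAV and ITGA4 stayed below 10% in each tumour. None of the 5 differences passed the test (exact two-sided permutation p from 0.4 to 1.0, adjusted p = 1.0 over 6 shares). ITGA6 held 22.1% in ZLD1039 tumour 2 and 39.1 to 44.5% in the other 5 tumours. With the ITGA3 position added as a sixth alpha subunit, that position held 47.8 ± 4.03% in ZLD1039 and 51.5 ± 1.91% in vehicle tumours.

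Single events of the integrin loci showed no called change. Of 124 events 82 were abundant enough to test, and 0 of 82 were called (limma, smallest adjusted p = 0.86), against 0.0364% of all events. Those with a log2 change below 0 numbered 59 of 82, against 48.6% of all events, but events of a locus share transcripts and are not independent. An unadjusted p under 0.05 was found for 0 of the 82, where 4.72% of all events had one. Groups that did not overlap were found for 0 of the 82, against 10.3% of all events. Of 14 integrin exons and introns tested for inclusion, 0 were called (limma, smallest adjusted p = 0.72), and 0.0% of all exons and introns were. Of the 14, 0 had an unadjusted p under 0.05 in limma and 0 had groups that did not overlap, against 2.09% and 7.12% of all exons and introns. Among 20 start sites and 3 end sites 0 were called by limma (0.0% of all start sites and 0.0% of all end sites). An unadjusted p under 0.05 was found for 0 of the 20, against 2.49% of all start sites, and for 0 of the 3, against 2.86% of all end sites. The 3 end sites had 0 without overlap, against 8.05% of all end sites.

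The wider adhesion machinery was checked with lists of Ensembl identifiers written from background knowledge, which the files do not name. Of all loci tested, 47.1% had a log2 change below 0, 0.0185% were called, 5.02% had an unadjusted p under 0.05 and 10.9% had groups that did not overlap. Limma called 0 loci in each of the 4 lists. Of 16 further integrin subunits only 4 reached a mean of 1 FPKM in a group, 2 with a change below 0 and 2 above. Their median log2 change was -0.13, with a range of -0.82 to 1.08. Among these 4, limma gave 0 with an unadjusted p under 0.05, and 0 had groups that did not overlap. All 19 intracellular adaptors and kinases were tested, 12 below 0 and 7 above, with a median log2 change of -0.07 and a range of -0.34 to 0.43. In limma 0 of the 19 had an unadjusted p under 0.05, while groups did not overlap for 1 that was lower and 1 that was higher under ZLD1039. Of 15 extracellular ligands 12 were tested, 9 below 0 and 3 above, with a median log2 change of -0.30 and a range of -0.95 to 0.20. In limma 2 of the 12 had an unadjusted p under 0.05, and 2 had groups that did not overlap, both lower under ZLD1039. The 4 membrane partners were 1 below 0 and 3 above, with a median log2 change of 0.13 and a range of -0.17 to 0.56. Among them 0 had an unadjusted p under 0.05 in limma, and 0 had groups that did not overlap. An identifier that is not listed need not be silent, since those of ITGB3 and ITGA3 are also missing while their positions carry high values.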

How the data were processed

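The 6 tumour libraries, 3 a group, were grouped by title. Per the file headers, the authors deposited FPKM values of transcript events for each tumour. The submitters' processing notes give bcl2fastq 2.17.1.14 and HTSeq 0.6.1, and no aligner or event caller (not given in the sources used here). Exact duplicate rows were dropped, rows of 1 event with different structures were summed, and unlisted events were set to 0. Depth is unknown, so no count model was used.

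The deposited values were transformed to log2(FPKM + 1) and fitted in limma 3.58.1 (R 4.3.3, trended variance) wherever 1 group averaged 1 FPKM or more. P-values were adjusted by Benjamini-Hochberg at 0.05 over all loci or all events. Inclusion is the abundance listed with an exon or intron over that listed with plus without it. It need not cover all transcripts of a locus. Inclusion and site shares needed a mean total of 1 FPKM, a total above 0 in each tumour and a mean of 1 to 99%. The fits were also run on simulated data with independent normal noise and no deviating tumour. That setting differs from these data, and nothing is concluded from it here. Members, lists and the form of the locus value were chosen with earlier results of these data known. All 10 members are named, and genes of the lists are given as counts. The planned ITGB3 share and ITGA3 tail exon used events at those genes' positions, since their identifiers have no rows. Those events were picked after the values were seen.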

Additional observations from a re-analysis of the deposited data

How the results depend on the processing

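The count of called integrin loci, events, exons and introns, and sites was 0 under each alternative run (pseudocount 0.1, no filter, median-of-ratios scaling and other locus forms for abundance; the log2 ratio scale and a minimum of 5 FPKM for shares; no variance trend; 1 tumour left out in turn). With a replicate block it was also 0. Deviations of same-numbered tumours from their group means had correlations of -0.03, 0.02 and -0.06 over locus values, so no pattern shared by number was seen. Whether the tumours were paired is not in the labels. Directions of values near 0 were not stable. With 1 tumour left out, the log2 change ranged from -0.76 to 0.14 for ITGA6 (0.14 without ZLD1039 tumour 2), from -0.73 to 0.38 for its transcripts with the tail exon (0.38 without ZLD1039 tumour 2) and from -0.48 to 0.57 for ITGA2 (-0.48 without ZLD1039 tumour 3, -0.05 without vehicle tumour 3). It ranged from -0.17 to 0.31 for ITGAV (-0.07, -0.04 and -0.17 without ZLD1039 tumour 1, vehicle tumour 2 and vehicle tumour 3) and from -0.033 to 0.30 for ITGA4 (-0.033 without vehicle tumour 3). With summed start events ITGA2 was -0.74 and ITGAV -0.36. Differences in share, in percentage points, ranged with 1 tumour left out from -0.11 to 2.31 for ITGAV, from -8.59 to 6.39 for ITGA5 (6.39 without ZLD1039 tumour 3, 1.43 without vehicle tumour 3), from -8.47 to 2.72 for ITGA6 and from -1.21 to 5.67 for ITGA2. With summed starts that of ITGAV was -0.80 and that of ITGA5 1.99. The ITGA5 difference was 4.09 with the largest event and 0.84 with the ITGA3 position added, an alternative chosen after seeing the data. The cause was not tested. Of the 6 shares, 1 had groups that did not overlap, and 1 to 2 did not with 1 tumour left out. With all tumours it was that of the ITGB3 position, whose event was picked after the values were seen. No background over all features was computed for such shares, so this count has no reading. The tail exon difference ranged from 2.61 to 25.6 points. The start at the ITGB3 position had a log2 change of -2.11 to -1.42 over 11 alternatives (limma, adjusted p 0.21 to 0.90). This event was picked after the values were seen. Its groups did not overlap, so leaving out 1 tumour could not turn its sign. Depth is unknown, so what it limits could not be computed.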
